A study of Mus musculus with 36 samples.

Results

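Long-term hematopoietic stem cells (LT-HSC) from *Apoe*-/-*Il27ra*-/- mice infused with angiotensin II (Ang II) were compared with LT-HSC from *Apoe*-/-*Il27ra*-/- mice infused with PBS. The libraries were taken by their deposited labels of cell type, genotype and infusion, which gave 4 Ang II and 3 PBS libraries, 7 of the 36 in the series. The series holds 17 LT-HSC libraries and 19 libraries of HPC-1, a progenitor population that the labels call ST-HSC, from mice with intact, heterozygous or absent *Il27ra*. The comparison asks what Ang II infusion does to gene expression in stem cells that lack the IL-27 receptor. All mice of all groups used here lacked *Apoe*, ate a Western diet for 12 weeks from the age of 8 weeks, and received PBS or Ang II (800 ng per kg per min) over the final 2 weeks. Marrow cells were sorted at 5000 per sample and their total RNA was sequenced. Groups set beside the comparison were *Apoe*-/-*Il27ra*+/- LT-HSC (3 PBS, 4 Ang II) and *Apoe*-/-*Il27ra*-/- HPC-1 (3 PBS, 4 Ang II), from mice with the same diet and infusions. With intact *Il27ra* the labels give a single PBS LT-HSC library, so whether the Ang II change differs from that in *Apoe*-/- LT-HSC was not tested. The labels give no gender, age or batch and do not say that each library came from a separate mouse, so every p-value below measures the spread between libraries.

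LT-HSC are rare marrow cells that can rebuild all blood lineages over the long term and divide seldom, while HPC-1 have left this state and express lymphoid and myeloid genes. *Il27ra* encodes the chain of the IL-27 receptor that pairs with gp130 and signals through Janus kinases and STAT proteins. Ang II is the effector peptide of the renin-angiotensin system, and its infusion raises blood pressure and promotes aortic disease in mice that lack *Apoe*.

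Values below are counts per M counts (CPM), normalized by TMM, and a series of values follows the order of the replicates, 1 to 4 after Ang II and 1 to 3 after PBS. The libraries held 2487152, 2320769, 4526734 and 6618618 counts after Ang II and 2170180, 6806836 and 6578590 after PBS. Counts were found for 16147, 18303, 19679 and 17228 genes after Ang II and for 17253, 18767 and 20694 after PBS. Neither the total counts (two-sided exact permutation test over 35 splits, p = 0.629) nor the number of genes with a count (p = 0.4 by the same exact test) separated the groups. The smallest p that such a test can give here is 0.0286. Of 38887 genes in the table, 13236 had no count in any of the 7 libraries. A library's detection limit was set at 3 counts, which is 0.422 to 1.38 CPM in these libraries, and limits and intervals of this kind cover counting error only.

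The label LT-HSC was checked on the sort gate and on lists of marker genes. *Slamf1*, which encodes the CD150 that LT-HSC were sorted for, was at 48.7, 22.1, 68.7 and 75.4 CPM after Ang II and at 48.5, 2.49 and 45.9 CPM after PBS. *Cd48*, whose product the gate removes, was at 1.17, 8.76, 0.43 and 0.84 CPM after Ang II and at 0, 66.1 and 4.33 CPM after PBS. PBS replicate 2 thus had the lowest *Slamf1* and the highest *Cd48* of the 7 libraries, the reverse of the gate. This pair of genes was chosen for the gate and lies outside the rule by which other genes were named.

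Each library was then placed on a scale built from 1451 genes with different levels in LT-HSC and HPC-1 in mice with intact or heterozygous *Il27ra*, with the HPC-1 mean at 0 and the LT-HSC mean at 1. The Ang II libraries lay at 0.981, 0.562, 1.053 and 1.037, and the PBS libraries at 1.085, 0.123 and 0.865. The 10 other LT-HSC libraries lay between 0.92 and 1.062, and the *Apoe*-/-*Il27ra*-/- HPC-1 libraries between −0.033 and 0.137. PBS replicate 2 lay among HPC-1, and Ang II replicate 2 lay midway. The mean place was 0.908 ± 0.233 (SD, n = 4) after Ang II and 0.691 ± 0.504 (SD, n = 3) after PBS, a difference of 0.217 that is smaller than the spread of the PBS group (two-sided exact permutation p = 0.543). Without both replicates 2 the means were 1.02 ± 0.0375 (SD, n = 3) and 0.975 ± 0.155 (SD, n = 2), with an exact permutation p of 0.7 where 0.1 is the smallest that 10 splits allow. On a stricter scale of 516 genes the difference was 0.227.

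**Figure D1:**
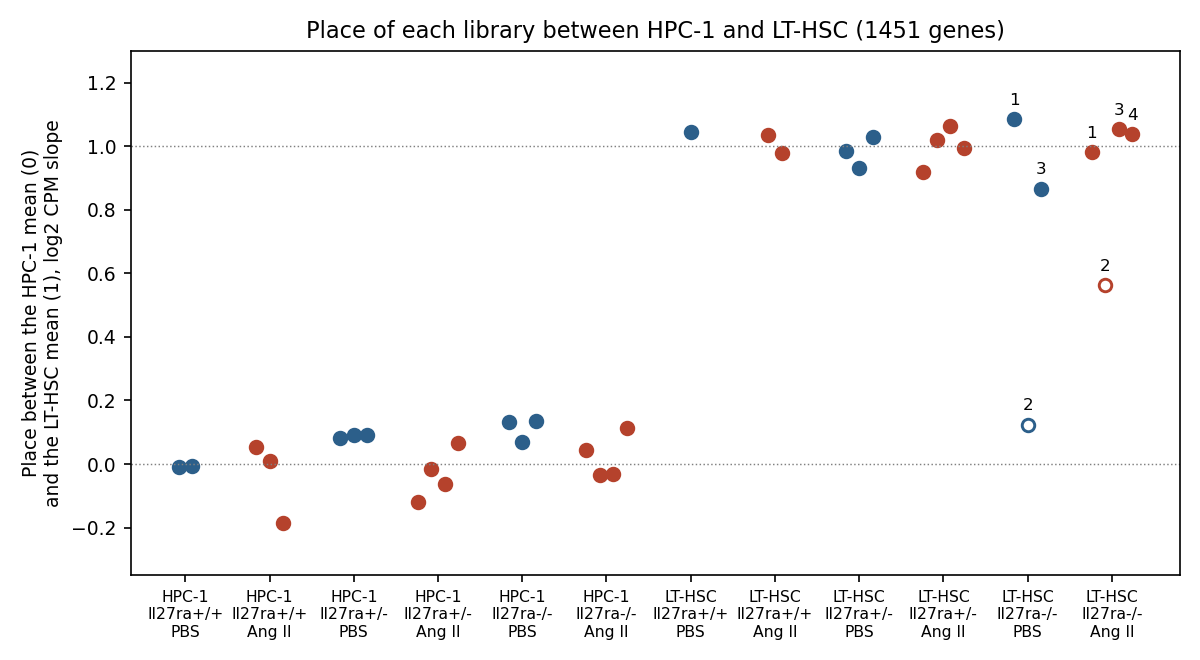
Place of each of the 36 libraries on the scale from the HPC-1 mean (0) to the LT-HSC mean (1), by group, with PBS in blue and Ang II in red. Numbers over points are replicates of *Apoe*-/-*Il27ra*-/- LT-HSC, and the open points are both replicates 2, at 0.123 after PBS and 0.562 after Ang II.

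Marker lists set 3 of the 7 libraries apart. In bulk RNA, fewer cells of a type and less RNA per cell cannot be told apart, so list sums are levels of RNA and not numbers of cells. The sum over 20 neutrophil genes was 243, 11600, 135 and 202 CPM after Ang II and 185, 4500 and 1980 CPM after PBS, where the 10 other LT-HSC libraries ranged from 111 to 269 CPM. Ang II replicate 2 and, less so, PBS replicates 2 and 3 were high. Which genes made up the sum differed between them. *S100a9*, a calcium-binding protein of mature neutrophils, was at 11.7, 2331, 0.43 and 3.66 CPM after Ang II and at 0.45, 4.21 and 337 CPM after PBS. *Mpo*, the myeloperoxidase of granulocyte precursors, had the highest mean of the list and was at 10.5, 1185, 1.07 and 20.5 CPM after Ang II and at 13.6, 3720.1 and 108 CPM after PBS. PBS replicate 2 was the highest of the 7 for *Mpo* and among the low ones for *S100a9*. *Ngp*, a granule protein, followed *S100a9*, with 8.18, 2258, 3.41 and 2.53 CPM after Ang II and 0, 7.17 and 405 CPM after PBS.

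The erythroid list (19 of 20 genes found) summed to 589, 4690, 981 and 1280 CPM after Ang II and to 667, 459 and 4370 CPM after PBS, against 558 to 1840 CPM in the 10 other LT-HSC libraries. *Hba-a2*, an alpha globin gene, was at 12.5, 1063, 52.5 and 202 CPM after Ang II and at 0.91, 14.4 and 1372 CPM after PBS. *Hba-a2* was thus highest in PBS replicate 3, with Ang II replicate 2 next. The order differed between globin genes, since *Hba-a1*, named after its values were seen, was at 531 CPM in Ang II replicate 2 and 386 CPM in PBS replicate 3, and *Hbb-bs* at 759 and 785 CPM. All 3 were low in PBS replicate 2. The 20 monocyte and macrophage genes summed to 177, 3740, 166 and 160 CPM after Ang II and to 151, 752 and 659 CPM after PBS, and the list's most abundant gene was *Lyz2*, lysozyme, at 112, 1768, 121 and 105 CPM after Ang II and 119.7, 88.6 and 328 CPM after PBS. For the 15 eosinophil, mast cell and basophil genes the sums were 14.4, 630, 13.7 and 2.81 CPM after Ang II and 2.72, 63.5 and 137 CPM after PBS, with *Prg2*, a granule protein, at 5.06, 305, 3.41 and 0 CPM after Ang II and 0, 5.93 and 62.9 CPM after PBS. Ang II replicate 2 stood highest in both lists and PBS replicates 2 and 3 carried more of this RNA than the 10 other LT-HSC libraries did, among which the monocyte list reached 207 CPM at most.

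The HPC-1 and multipotent progenitor list of 15 genes summed to 666, 919, 278 and 365 CPM after Ang II and to 369, 3050 and 629 CPM after PBS. The 19 HPC-1 libraries ranged from 1760 to 3450 CPM, so that PBS replicate 2 lay within HPC-1 here too. *Flt3*, a growth factor receptor of multipotent progenitors, was at 88.02, 85.3, 14.3 and 30.2 CPM after Ang II and at 12.2, 459 and 83.8 CPM after PBS, and *Dntt*, the terminal transferase of lymphoid progenitors, was at 0, 2.77, 0 and 1.12 CPM after Ang II and 0, 275 and 9.41 CPM after PBS. PBS replicate 2 was far the highest in both. Of the 3 genes of the list with the highest means, *Cd34* (204, 202, 55.9 and 95.6 CPM after Ang II and 99.3, 646 and 165 CPM after PBS) and *Notch1* (114, 122, 98.4 and 104 CPM after Ang II and 97.5, 268 and 117 CPM after PBS) were also highest in PBS replicate 2. *Cd27* was not, at 168, 139, 68.1 and 91.1 CPM after Ang II and 123, 165 and 91.3 CPM after PBS. The 24 long-term HSC genes summed to 6500, 3810, 6070 and 5970 CPM after Ang II and to 6490, 1980 and 5340 CPM after PBS, and in the 10 other LT-HSC libraries to 4910 to 6360 CPM. *Kit*, the receptor of stem cell factor and the most abundant gene of this list, was at 1213, 806, 885 and 887 CPM after Ang II and at 1275, 690.2 and 795 CPM after PBS. The transcription factor gene *Hlf* was at 801, 410.2, 497 and 541 CPM after Ang II and at 574, 161 and 532 CPM after PBS. Both replicates 2 were the lowest of their groups for the list, for *Kit* and for *Hlf*.

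B lymphoid genes (17 in the list) summed to 24.9, 204, 30.7 and 19.5 CPM after Ang II and to 38.1, 164 and 169 CPM after PBS, and the 18 T and NK cell genes to 32.3, 56.2, 28.4 and 28.8 CPM after Ang II and 18.1, 53.5 and 49 CPM after PBS. Ang II replicate 2 and PBS replicates 2 and 3 lay above the 10 other LT-HSC libraries in both lists, where the highest of those were at 136 and 48.9 CPM. *Ms4a1* and *Gzma* had no count in the 7 libraries. Marrow stroma and endothelium (17 genes) summed to 157, 120, 152 and 160 CPM after Ang II and to 159, 317 and 145 CPM after PBS, with *Pecam1*, which stem cells express as well, as the most abundant gene and no count of *Col3a1* or *Bglap*. Intestinal epithelium (18 genes) summed to 113, 81.1, 102 and 120 CPM after Ang II and to 111, 39.1 and 120 CPM after PBS, most of it *Krt18* (96.2, 65.5, 86.2 and 97.7 and 90.7, 31.03 and 100.2 CPM in the same order), while *Krt19*, *Muc2*, *Tff3*, *Fabp1*, *Fabp2* and *Cdx2* had no count. *Agr2*, a gene of mucous epithelium that the study names, was at 0.21 CPM in Ang II replicate 3 and 0.16 CPM in PBS replicate 2 and had no count in the other 5 libraries, so that a difference between the groups was not detectable.

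**Figure D2:**
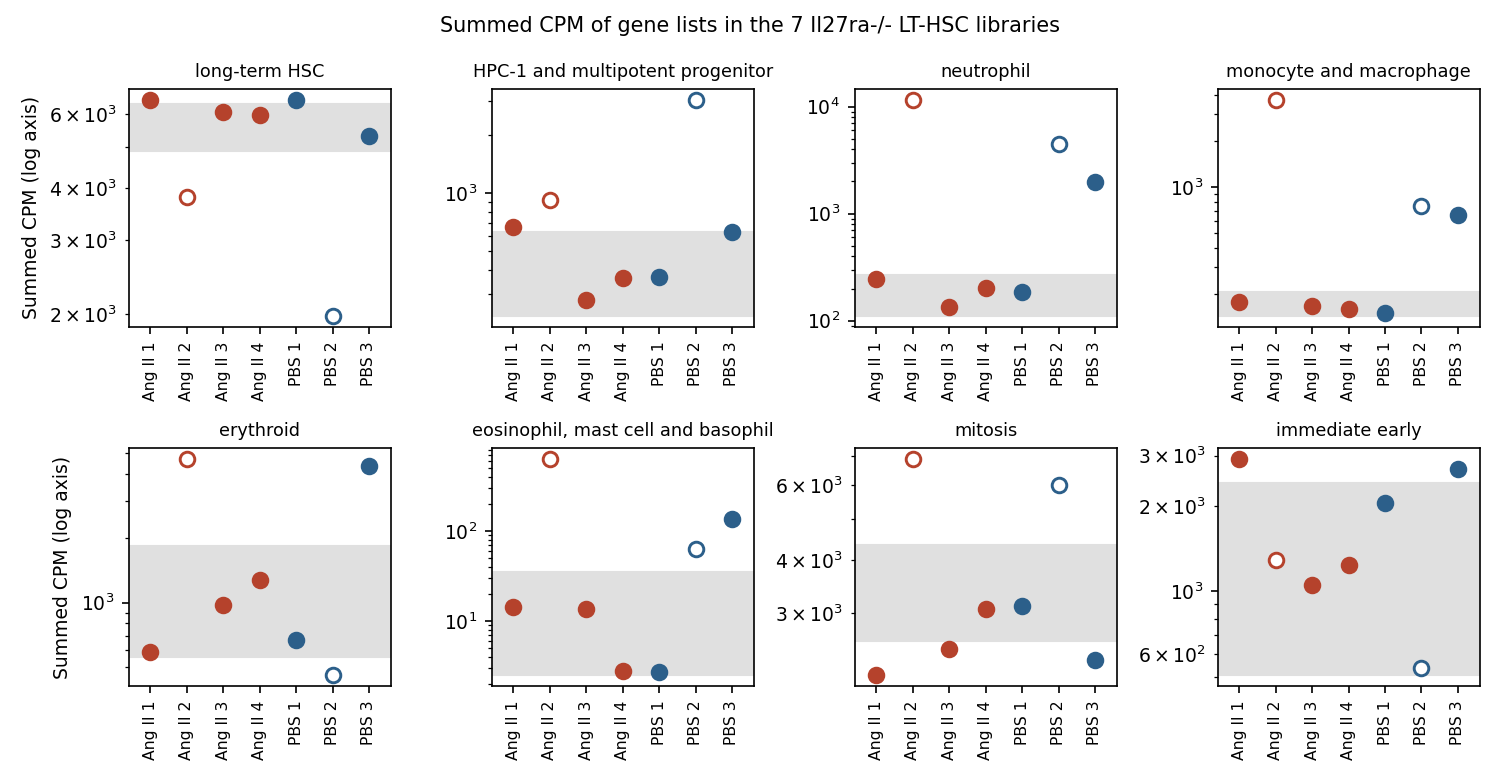
Summed CPM of 8 gene lists in each of the 7 *Apoe*-/-*Il27ra*-/- LT-HSC libraries on a log axis, Ang II in red and PBS in blue, with both replicates 2 as open points. The grey band spans the 10 other LT-HSC libraries. Ang II replicate 2 reaches 11600 CPM of neutrophil genes, PBS replicate 2 reaches 3050 CPM of HPC-1 genes, and PBS replicate 3 holds 4370 CPM of erythroid genes.

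Both replicates 2 also differed from their groups across many genes. Against the mean of the other Ang II libraries, 275 of 11315 genes were over 4-fold higher and 132 over 4-fold lower in Ang II replicate 2. In PBS replicate 2, against the other PBS libraries, 103 of 11297 genes were over 4-fold higher and 485 lower. In Ang II replicates 1, 3 and 4, each against the mean of the other 2 of these, 20, 30 and 6 of 11185 genes were over 4-fold higher and 118, 21 and 19 lower. PBS replicate 1 had 22 genes over 4-fold higher and 203 lower than PBS replicate 3. Spearman correlation across genes, which are not independent replicates, was 0.981 between Ang II replicates 3 and 4. For PBS replicate 2 it was 0.908 to 0.94 with the other 6 libraries, and for Ang II replicate 2 it was 0.913 to 0.942. Fold changes and counts of genes are therefore given over 7 libraries and over the 5 that remain without both replicates 2. Since PBS replicate 3 carries RNA of mature blood cells and is 1 of only 2 PBS libraries left among the 5, a fit that also omits it is given where it bears on a result. That fit of 4 libraries was chosen after seeing the data and has PBS replicate 1 alone in its group, which is assumed to vary like the other groups.

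Sex-linked genes divided the libraries in another way. They were chosen after their values were seen. *Xist*, the RNA that silences an X chromosome, was at 14.1, 7.76, 4717 and 3874 CPM (before TMM) after Ang II and at 19.8, 4558 and 3788 CPM after PBS. The libraries with little *Xist* were those with expression of Y-linked genes, Ang II replicates 1 and 2 and PBS replicate 1. Thus 2 of 4 Ang II libraries and 1 of 3 PBS libraries expressed Y-linked genes. They were also the libraries with the fewest counts, at most 2487152, where the others held at least 4526734. Sex-linked expression and depth therefore cannot be told apart in the 7 libraries. In the fit of 4 libraries, PBS replicate 1 and Ang II replicate 1 expressed Y-linked genes and Ang II replicates 3 and 4 did not. The infusion is therefore partly confounded with sex-linked expression in that fit.

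*Il27ra* (ENSMUSG00000005465, mm10 chromosome 8, 84030294 to 84042589) was examined first among single genes. It was at 17.1, 12.5, 16.9 and 19.7 CPM after Ang II and at 9.98, 7.33 and 17.03 CPM after PBS. RNA of the gene was thus still counted in all 7 libraries of the knockout, and counts per gene do not show which of its exons they come from. The groups overlapped, since PBS replicate 3 lay within the Ang II range. The log2 fold change of Ang II against PBS was 0.53 over 7 libraries (95% interval −0.10 to 1.15, adjusted p = 1) and 0.37 over 5 (−0.29 to 1.02, adjusted p = 1), both from edgeR with adjustment over all genes. In *Apoe*-/-*Il27ra*+/- LT-HSC the gene was at 25.8 to 44.6 CPM, above all 7 libraries of the knockout. The Ang II change there was −0.09, and the difference of the change between the genotypes had an adjusted p of 1 by edgeR.

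Over 7 libraries, edgeR's two-sided quasi-likelihood test with Benjamini-Hochberg adjustment called 0 of 16365 genes at an adjusted p under 0.05. The smallest adjusted p was 1. At an unadjusted p under 0.05 there were 150 genes, 0.917% of those tested, with 42 higher and 108 lower after Ang II. This count moved when single libraries were left out, to 436 without Ang II replicate 2, 486 without PBS replicate 1, 86 without PBS replicate 2 and 289 without PBS replicate 3. A calibrated test would place a fraction of 0.05 of unchanged genes under that p. The share here and that over 5 libraries were lower. The test was thus cautious, and 0 calls do not show that no gene changed. The smallest unadjusted p of all genes was 0.00182. DESeq2 called 1 gene, *Gm24924*, with 171 genes at an unadjusted p under 0.05, and limma-voom called 0, with 920 at an unadjusted p under 0.05. Without a filter on low counts, edgeR called 104 of 29655 genes (46 higher, 58 lower), and all 104 were among those tested with the filter. Why they pass in 1 fit alone was not tested. The median log2 fold change over all genes was −0.0081. For the 10031 genes with a mean of at least 10 CPM, the 95% interval of the log2 fold change reached a median of 0.541 to either side, so that a smaller change lies within the error of a typical gene.

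Over 5 libraries, without both replicates 2, the same edgeR test called 0 of 16205 genes. There, 172 genes (1.06%) had an unadjusted p under 0.05, 32 higher and 140 lower after Ang II, the smallest at 0.000322. DESeq2 again called *Gm24924* alone, and limma-voom called 0. With a replicate block, which pairs libraries by number and was added after seeing the data, 1 gene was called, lower after Ang II. Of the genes at an unadjusted p under 0.05, 23 were shared by both sets, 15.3% of the list over 7 libraries and 13.4% of that over 5, and all 23 had the same direction. Over 4 libraries, also without PBS replicate 3, 1 of 15881 genes (0.0063%) passed. At an unadjusted p under 0.05 there were 217 (1.37%), now with 137 higher (0.863%) and 80 lower (0.504%). The balance of directions among these genes thus turned when PBS replicate 3 was left out.

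The gene called over 4 libraries was *Hist1h4m*, a histone H4 gene on chromosome 13, named after its values were seen. It was at 50.2, 94.96, 72.4 and 49.5 CPM after Ang II and at 0, 161 and 71.9 CPM after PBS. The call (adjusted p = 1.95e-05) rests on PBS replicate 1, which had no count, and the other PBS libraries lay above or within the Ang II range. Histone H4 genes are near-identical copies, so reads can be assigned to the wrong copy. *Gm24924*, a small nuclear RNA gene, had a different pattern. It had no count in any Ang II library and was at 28.1, 14.2 and 137 CPM after PBS, at least 66.3-fold lower after Ang II against a detection limit of 3 counts per library. Without PBS replicate 3, which carries most of the PBS mean, the bound is 23.4-fold. In *Apoe*-/-*Il27ra*+/- LT-HSC, *Gm24924* was at 0, 0, 0 and 57.6 CPM after Ang II and at 0, 62.4 and 88.5 CPM after PBS. Libraries with and without counts thus occurred within both groups of that genotype. RNAs of this family also have near-identical copies. By edgeR its adjusted p was 1 in both sets of libraries.

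Genes were named for each direction by the smallest p where the groups were apart in every library, and none of those that follow passed the adjusted test. Over 7 libraries, 148 of 16365 genes (0.904%) had every Ang II library above every PBS library and 232 (1.42%) had every one below, 380 together (2.32%). A random split into groups of this size would give a fraction of 0.0286 in each direction. *Slc9a9* (ENSMUSG00000031129, chromosome 9, 94669909 to 95230445), which encodes a sodium-proton exchanger of endosomes, had the smallest p of the lower genes at a mean of at least 5 CPM. It was at 2.34, 10.6, 5.76 and 4.08 CPM after Ang II and at 13.2, 29.8 and 11.8 CPM after PBS, with means of 5.69 ± 3.56 (SD, n = 4) and 18.2 ± 10 (SD, n = 3). Both replicates 2 were the highest of their group. The gene was named for groups that do not overlap over 7 libraries, so leaving libraries out could not make them overlap. The log2 fold change was −1.71 over 7 libraries (−2.70 to −0.72, unadjusted p = 0.00182 by edgeR, adjusted p = 1), −1.58 over 5 and −1.66 over 4. The fold change was thus of similar size in the 3 sets.

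*Irf1*, a transcription factor gene induced by interferons, was at 69.3, 50.2, 45.03 and 49.2 CPM after Ang II and at 71.2, 90.1 and 75.6 CPM after PBS. Its groups were separated by a narrow gap between Ang II replicate 1 and PBS replicate 1. The log2 fold change was −0.57 over 7 libraries, −0.44 over 5 and −0.39 over 4, with unadjusted p of 0.00748, 0.0598 and 0.19 by edgeR. *Dusp2*, which encodes a phosphatase of MAP kinases and belongs to the immediate early genes, was at 26.9, 21.7, 32.4 and 26.01 CPM after Ang II and at 35.4, 41.01 and 57.96 CPM after PBS. All Ang II libraries lay below all PBS libraries, PBS replicate 3 being the highest. Its log2 fold change was −0.74 over 7 libraries, −0.73 over 5 and −0.31 over 4, the smallest of these without PBS replicate 3.

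Further genes with non-overlapping, lower values over 7 libraries comprised *Glmn* (−1.20 on the log2 scale), *Bckdha* (−0.60), a subunit of the enzyme that degrades branched-chain keto acids, and *Cdk19* (−0.38), a kinase of the Mediator complex. The receptor genes *Tgfbr1* for TGF-β and *Calcrl* for adrenomedullin and related peptides were at −0.48 and −0.42. *Gm4070*, which has close copies, was at −0.72. Over 5 libraries these 6 log2 fold changes lay between −0.96 and −0.22. Their direction there was already fixed by the choice of genes without overlap over 7.

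Among the genes higher after Ang II with non-overlapping groups and a mean of at least 5 CPM, *Dlk1* had the smallest unadjusted p. It is an imprinted gene for a ligand of the Delta-like family (ENSMUSG00000040856, chromosome 12, 109452823 to 109463336), and it was at 13.6, 8.30, 4.05 and 4.08 CPM after Ang II and at 2.72, 0.47 and 3.29 CPM after PBS. The lowest Ang II library lay just above the highest PBS library, and Ang II replicate 1 was far above the rest. The log2 fold change was 1.79 over 7 libraries (0.38 to 3.20, unadjusted p = 0.0154 by edgeR, adjusted p = 1) and 1.18 over 5 (−0.22 to 2.59), where the interval includes 0. *Fzd4*, a Wnt receptor gene, was at 17.1, 5.53, 6.19 and 8.02 CPM after Ang II and at 3.63, 1.56 and 4.63 CPM after PBS. It also was highest in Ang II replicate 1, with a log2 fold change of 1.49 over 7 libraries and 1.29 over 5.

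*Mtif3*, which encodes an initiation factor of mitochondrial translation, was more even within the groups, at 29.6, 34.1, 38.8 and 35.3 CPM after Ang II and at 20.4, 24.6 and 23.9 CPM after PBS. Its log2 fold change was 0.58 over 7 libraries (unadjusted p = 0.0263), 0.64 over 5 (0.0436) and 0.76 over 4 (0.0761, all by edgeR). *Sgsm3* was at 0.66, 0.82 and 1.37 in the same order. The other named genes that were higher over 7 libraries had log2 fold changes of 0.54 (*Tarsl2*), 0.53 (*Erc1*), 0.51 (*Klf3*, a transcription repressor), 0.50 (*Ddhd1*, a phospholipase), 0.45 (*St3gal2*, a sialyltransferase) and 0.36 (*Arrb1*, β-arrestin 1, which uncouples G protein-coupled receptors). Over 5 libraries they ranged from 0.24 (*Arrb1*) to 0.54 (*Tarsl2*). Their direction there was already fixed by the choice of genes without overlap over 7.

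Over 5 libraries, non-overlap is common, as a random split would give it to a fraction of 0.1 of genes in each direction. There, 1033 of 16205 genes (6.37%) were higher and 1322 (8.16%) lower in all 3 Ang II than in both PBS libraries. *Klhl26* had the smallest unadjusted p of the higher genes among these with a mean of at least 5 CPM. It was at 40.9, 19.4, 38.6 and 43.5 CPM after Ang II and at 23.1, 26.04 and 28.1 CPM after PBS, so that Ang II replicate 2 was the lowest of the 7 and the other Ang II libraries the highest. Its log2 fold change was 0.67 over 5 libraries and 0.47 over 7. *Bnip3*, a mitophagy gene that responds to hypoxia, was at 24.9, 11.1, 19.4 and 23.2 CPM after Ang II and at 9.98, 9.98 and 12.7 CPM after PBS. It had unadjusted p under 0.05 in all 3 sets of libraries, with log2 fold changes of 0.85, 0.97 and 1.17 over 7, 5 and 4.

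The other genes named for higher values over 5 libraries had log2 fold changes between 0.46 (*Nat10*, an RNA acetyltransferase) and 1.77 (*Gm47283*, a gene on the Y chromosome with close copies). Among them were *Elavl1* (0.48), an RNA-binding protein, *Gtf2f2* (0.63), a subunit of TFIIF, *Cstf1* (0.49), of the cleavage stimulation factor, and *Elp5* (0.94), of Elongator. *Ranbp6* was at 0.74 and *Trim47* at 0.62. Over 7 libraries these genes were closer to 0 or had wider intervals, as for *Nat10* (0.10) and *Elavl1* (0.20).

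**Figure D3:**
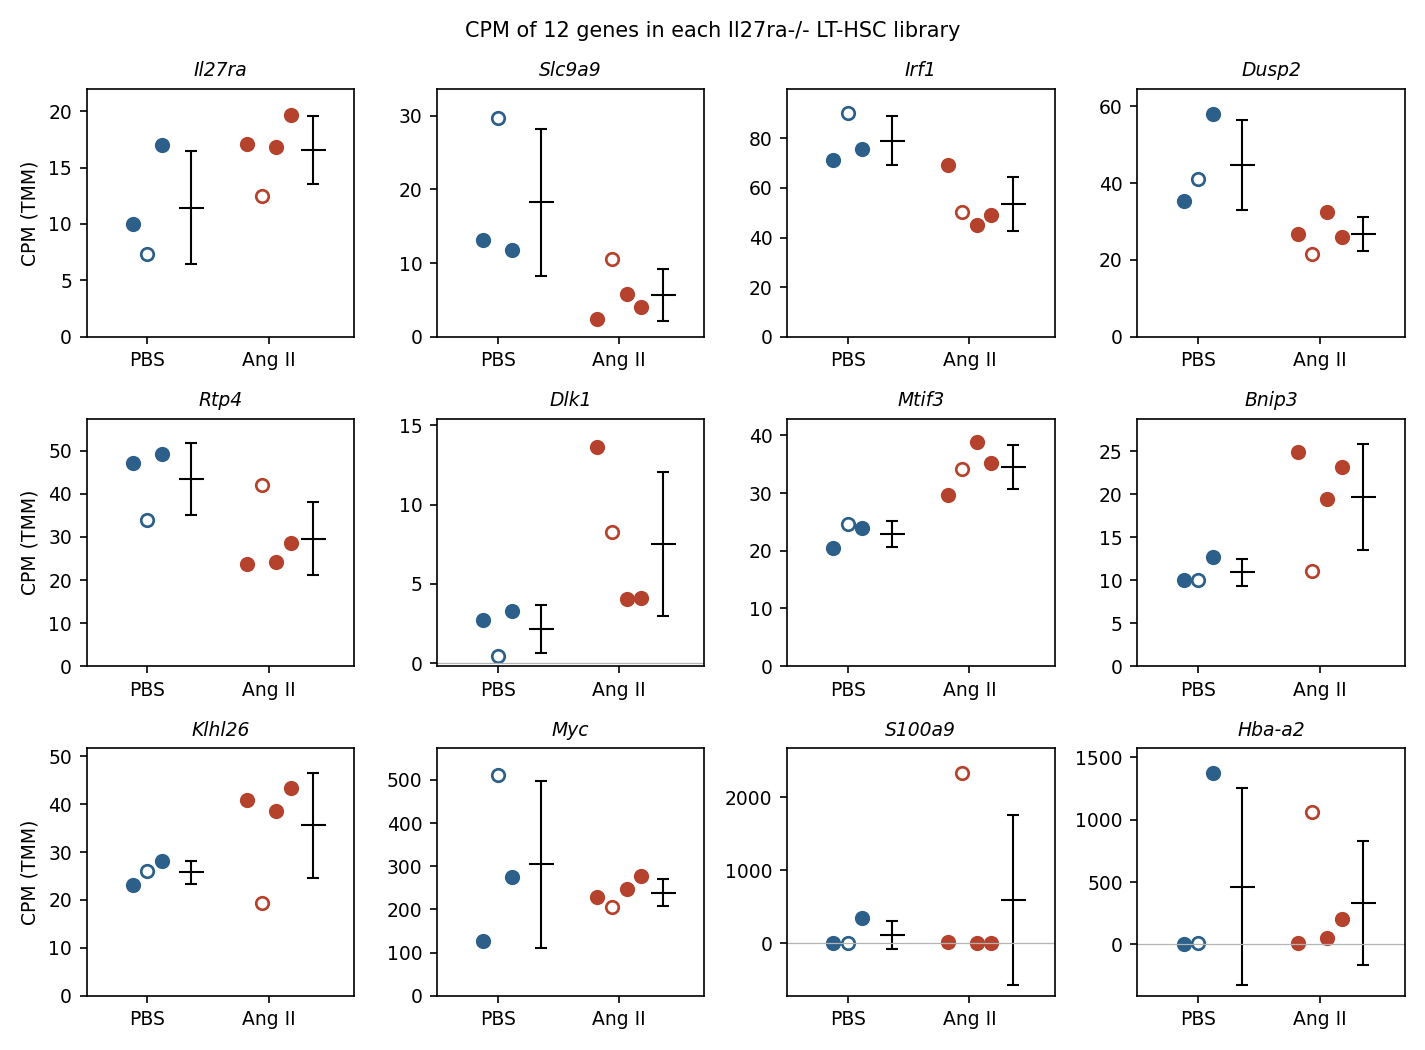
CPM of 12 genes in each PBS (blue) and Ang II (red) library of *Apoe*-/-*Il27ra*-/- LT-HSC, with both replicates 2 as open points, and the mean and SD of all libraries of the group beside them. For *Slc9a9*, *Irf1*, *Dusp2*, *Dlk1* and *Mtif3* the groups do not overlap, while *S100a9* and *Hba-a2* are highest in Ang II replicate 2 and PBS replicate 3.

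The genes lower over 5 libraries with the smallest unadjusted p included genes of mature blood cells. *C3*, the complement component, was at 0.78, 509.8, 0.43 and 0.56 CPM after Ang II and at 0.91, 22.9 and 57.1 CPM after PBS. Its log2 fold change was 2.18 over 7 libraries, −5.62 over 5 (unadjusted p = 0.000602 by edgeR, adjusted p = 1) and −0.62 over 4. *Camp*, the cathelicidin of neutrophil granules, was at 0.39, 301, 0 and 0.28 CPM after Ang II and at 0.45, 0.62 and 57.2 CPM after PBS. Only Ang II replicate 2 and PBS replicate 3 were well above the detection limit for *Camp*, and its log2 fold change went from 1.89 over 7 libraries to −6.92 over 5. *Elane*, neutrophil elastase, was at 0, 162, 0.21 and 1.27 CPM after Ang II and 1.36, 94.8 and 26.7 CPM after PBS, with log2 fold changes of −0.06 and −4.56.

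Further genes named for lower values over 5 libraries differed in the libraries that held them. *Igkc*, the kappa light chain, went from −0.64 on the log2 scale over 7 libraries to −7.31 over 5. *Anxa2* went from 0.51 to −1.17, and *Mxd1*, an antagonist of MYC, from 0.84 to −0.64. *Ugt1a7c* was at −0.51 and −1.66. *H2-Aa*, an MHC class II chain, was at 3.51, 4.61, 4.91 and 3.66 CPM after Ang II and at 7.71, 1.72 and 18.2 CPM after PBS, with log2 fold changes of −1.15, −1.71 and −0.93 over 7, 5 and 4 libraries. PBS replicate 3 was the highest of the 7 for *H2-Aa*, and PBS replicate 2 the lowest. With single libraries left out the log2 fold change ranged from −1.66 to −0.07, the latter without PBS replicate 3.

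The gene lists were read against all genes tested, with the shares of 0.257% higher and 0.66% lower at an unadjusted p under 0.05 over 7 libraries and of 0.197% and 0.864% over 5. Of the members of all 25 lists, 0 passed the adjusted test by edgeR over 7, 5 or 4 libraries, and counts at an unadjusted p under 0.05 are given with the lists. These shares depend on the libraries, as the counts above with single libraries left out show. Where a group had no count of a member, the list's median takes that member at its bound, 3 counts per library. Of 24 long-term HSC genes tested over 7 libraries, 23 had a positive log2 fold change, with a median of 0.36 and 0 members at an unadjusted p under 0.05. Over 5 libraries 17 were positive, with a median of 0.05, and over 4 libraries 9 were, with a median of −0.10. The shift over 7 libraries was thus not seen once both replicates 2 were out. Without PBS replicate 2 alone the median was −0.11, and without Ang II replicate 2 alone it was 0.49. Of 14 HPC-1 and multipotent progenitor genes tested, 13 were negative over 7 libraries, 4 of them at an unadjusted p under 0.05, with a median of −1.64. The median was −0.20 over 5 libraries (−0.44 by fitted values, with 1 of 13 members lower at such a p) and 0.49 over 4 (0.75 by fitted values). By fitted values it was 0.15 without PBS replicate 2 alone and −2.79 without Ang II replicate 2 alone.

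Lists of mature blood cells turned with the set of libraries and with the method. Over 7 libraries the 20 neutrophil genes had a median of 1.95 by edgeR, and 0 had an unadjusted p under 0.05. Over the same 7 libraries the median was −3.95 by limma-voom with sample weights and −0.47 with a Y-linked covariate. By limma-voom the erythroid median was −1.18, the monocyte and macrophage median −1.79 and the eosinophil, mast cell and basophil median −3.29. Over 5 libraries by edgeR, 13 of the 18 neutrophil genes tested were lower at an unadjusted p under 0.05, with a median of −4.46 (−4.88 by fitted values). Over 4 libraries, also without PBS replicate 3, the median of the 12 neutrophil genes still tested was 0.19 (3.11 by fitted values). With single libraries left out, the neutrophil and erythroid medians by fitted values were −5.25 and −0.93 without Ang II replicate 2. They were 6.08 and 2.18 without PBS replicate 3. For 19 erythroid genes the medians were 0.28, −1.33 and 1.00 (2.85 by fitted values) over 7, 5 and 4 libraries, with 0, 3 lower and 3 higher members at an unadjusted p under 0.05. For the monocyte and macrophage list they were 0.56, −1.68 and 0.47, with 4 of 18 members lower over 5 libraries and 0 otherwise. For eosinophil, mast cell and basophil genes they were 1.11, −3.02 (−3.68 by fitted values) and 0.80 (3.89 by fitted values), with 1 of 6 members lower over 5 libraries and 0 otherwise. Over all genes the medians were −0.0081, −0.013 and 0.023.

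Over 7 libraries, 9 of 17 B lymphoid and 7 of 18 T and NK cell genes had enough counts to be tested. For MHC class II and dendritic cells, 12 of 14 had. The 9 B lymphoid genes tested had medians of −0.64, −1.37 and −0.80 over 7, 5 and 4 libraries, with 2 lower at an unadjusted p under 0.05 over 5. Without Ang II replicate 2 alone the B lymphoid median was −3.24. The 7 T and NK cell genes tested had medians of 0.18, −0.01 and 0.83 and 0 such members. Of 12 MHC class II and dendritic cell genes, 1 was lower over 7 libraries and 4 over 5, with medians of −0.58 and −0.72 (−1.25 by fitted values), and over 4 libraries the median was 0.13 with 1 higher. *Cd74*, the invariant chain, was at 15.6, 24.9, 8.75 and 5.91 CPM after Ang II and at 8.62, 9.98 and 73.95 CPM after PBS, highest in PBS replicate 3.

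Megakaryocyte and platelet genes kept the direction of their median in all 3 sets of libraries, as did B lymphoid, lineage-choice and cholesterol genes. The sets are nested, so they are not separate evidence. The 19 megakaryocyte and platelet genes summed to 1180, 837, 2070 and 1930 CPM after Ang II and to 1340, 358 and 1320 CPM after PBS. The 10 other LT-HSC libraries ranged from 1410 to 3550 CPM with a median of 1880. Of 18 genes tested, 15 were positive over 7 libraries (median 0.82, 2 higher at an unadjusted p under 0.05), 17 over 5 (median 0.52, 1 higher) and 16 over 4 (median 0.40, 0 higher). Groups did not overlap, higher after Ang II, for 0 of 18 members over 7 libraries and for 6 of 18 over 5, where 0.904% and 6.37% of all genes did so. *Vwf*, von Willebrand factor and the most abundant of the list, was at 294, 121, 677 and 668 CPM after Ang II and at 472, 6.39 and 388 CPM after PBS. Ang II replicates 3 and 4 were high, Ang II replicate 1 lay below PBS replicates 1 and 3, and PBS replicate 2 had almost none. *Itgb3*, an integrin chain of platelets, was at 227, 129, 299 and 303 CPM after Ang II and 219, 25.9 and 178 CPM after PBS, with log2 fold changes of 0.78, 0.48 and 0.34. Its partner *Itga2b* was at 190.1, 226, 314 and 367 CPM after Ang II and 212, 85.1 and 228 CPM after PBS (0.65, 0.40 and 0.45).

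*Ppbp*, a chemokine gene of platelets, was at 1.95, 0, 9.18 and 3.09 CPM after Ang II and at 1.36, 0 and 0.15 CPM after PBS, with log2 fold changes of 3.25 over 7 libraries (unadjusted p = 0.0277), 2.93 over 5 (0.0323) and 1.79 over 4 (0.258, all by edgeR), and of 2.20 to 5.10 with single libraries left out. It was well above the detection limit in Ang II replicates 3 and 4 alone. Of the sums over the list, those of Ang II replicates 3 and 4 lay within the range of the 10 other LT-HSC libraries and those of the other 5 libraries below it.

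Interferon-stimulated genes had negative medians over 7 and 5 libraries, with 0 members past adjustment and sums that overlapped between the groups. They summed to 2220, 2470, 2170 and 2420 CPM after Ang II and to 2230, 2660 and 2790 CPM after PBS. Of 39 tested (of 40), 25 were negative over 7 libraries, 3 of them at an unadjusted p under 0.05, with a median of −0.17. Over 5 libraries 31 were negative, 2 at such a p, with a median of −0.20, and 10 had all Ang II values below both PBS values, as 8.16% of all genes did. Over 7 libraries 1 had all Ang II values below all PBS values, as 1.42% of all genes did. Over 4 libraries 18 were negative, 2 at such a p, and the median was 0.09. The direction of the median thus turned in the fit of 4 libraries, which has PBS replicate 1 alone in its group. Whether it turned through PBS replicate 3 or through the smaller group was not tested. *Rtp4*, an interferon-induced gene, was at 23.8, 41.95, 24.1 and 28.7 CPM after Ang II and at 47.2, 33.8 and 49.2 CPM after PBS. Its log2 fold change was −0.56 over 7 libraries (unadjusted p = 0.0627), −0.91 over 5 (0.00549) and −0.88 over 4 (0.0334, all by edgeR). Ang II replicate 2 and PBS replicate 2 brought the groups into overlap. *Parp14*, the most abundant gene of the list, was at 180.3, 210.2, 147 and 167 CPM after Ang II and 195, 205 and 210.5 CPM after PBS, with log2 fold changes of −0.21, −0.30 and −0.24.

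Genes of the pathway that the receptor serves had a median near that of all genes over 5 and 4 libraries, and one of 0.09 over 7. The 24 genes of the IL-27 receptor and JAK-STAT list summed to 2380, 2470, 2220 and 2470 CPM after Ang II and to 2300, 2190 and 2470 CPM after PBS. Their median log2 fold change was 0.09 over 7 libraries, −0.01 over 5 and 0.01 over 4. At an unadjusted p under 0.05, 1 was lower over 7 libraries, 0 passed over 5 and 2 were higher over 4. *Jak1*, the kinase with the most counts in the list, was at 507, 454, 481 and 484 CPM after Ang II and at 494, 351 and 469.8 CPM after PBS, and *Stat3* at 289, 256, 230.1 and 279 CPM after Ang II and 237, 216 and 288 CPM after PBS.

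Of the renin-angiotensin genes, the receptor gene *Agtr2* and *Ren1* had no count in any of the 7 libraries, and 8 of 16 members could be tested over 7 libraries. The list summed to 490, 566, 475 and 437 CPM after Ang II and to 526, 502 and 518 CPM after PBS, with medians of −0.05, −0.10 and 0.09 over 7, 5 and 4 libraries and 1 member lower at an unadjusted p under 0.05 over 5. *Lnpep*, an aminopeptidase that binds angiotensin IV, was the most abundant, at 209.5, 229, 192 and 163 CPM after Ang II and 254, 206 and 193 CPM after PBS. *Agtrap*, whose product promotes internalization of the type 1 angiotensin receptor, was at 75.9, 73.3, 75.3 and 79.5 CPM after Ang II and at 89.3, 85.1 and 83.8 CPM after PBS. All Ang II libraries lay below all PBS libraries, yet the log2 fold change was small, at −0.18 over 7 libraries (−0.50 to 0.14, adjusted p = 1 by edgeR) and −0.17 over 5.

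Immediate early genes varied between libraries of 1 group more than between groups. Their sum was 2920, 1290, 1050 and 1240 CPM after Ang II and 2040, 537 and 2690 CPM after PBS, and ranged widely in the 10 other LT-HSC libraries as well. *Jun* was at 788, 306, 281 and 366 CPM after Ang II and at 683, 143 and 626 CPM after PBS, *Egr1* at 474, 101, 112 and 104 CPM after Ang II and 236, 7.33 and 360.2 CPM after PBS, and *Fos* at 305, 80.2, 38.2 and 72.7 CPM after Ang II and 102, 15.1 and 289 CPM after PBS. Ang II replicate 1 and PBS replicates 1 and 3 were high for these transcription factor genes. The median log2 fold change of 23 members was 0.06 over 7 libraries, with 1 lower at an unadjusted p under 0.05, −0.39 over 5, with 2 lower, and 0.06 over 4, with 0. Over 7 libraries limma-voom gave a median of −0.73, and without PBS replicate 3 alone edgeR gave 0.72.

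Cell cycle lists were shifted in single libraries. The 32 DNA replication genes summed to 2200, 4830, 2580 and 2790 CPM after Ang II and to 2370, 5160 and 2500 CPM after PBS, and the 30 mitosis genes to 2150, 6900, 2480 and 3080 CPM after Ang II and 3120, 6000 and 2330 CPM after PBS. Both replicates 2 had the highest values of both lists. *Mki67*, a proliferation marker, was at 902, 3055, 935 and 1194 CPM after Ang II and at 1346, 2097 and 966 CPM after PBS. *Mcm6*, of the replicative helicase, was at 297, 548, 369 and 397 CPM after Ang II and 287, 719 and 367 CPM after PBS. The medians were −0.07 and −0.21 over 7 libraries and 0.06 and 0.00 over 5, with 0 members of either list at an unadjusted p under 0.05 over 7 libraries and 1, a lower replication gene, over 5. Single libraries moved them, to −0.43 for DNA replication without Ang II replicate 2, and to 0.32 and 0.44 for DNA replication and mitosis without PBS replicate 2.

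The G1 list of cyclins, their kinases and inhibitors summed to 1910, 1920, 2300 and 2220 CPM after Ang II and to 1860, 2490 and 2110 CPM after PBS, with medians of −0.14, 0.04 and 0.07 over 7, 5 and 4 libraries and 1 member higher over 7 and 1 over 4. *Myc* (chromosome 15, 61985391 to 61990374) was at 228, 205, 247 and 276 CPM after Ang II and at 127, 511 and 275 CPM after PBS. PBS replicate 2 was the highest of the 7 and PBS replicate 1 the lowest, so that the log2 fold change was −0.35 over 7 libraries, 0.31 over 5 and 0.98 over 4, where its unadjusted p was 0.00179 by edgeR and its adjusted p 1. *Ccnd1*, cyclin D1, was at 24.9, 40.1, 46.95 and 42.1 CPM after Ang II and at 53.96, 32.1 and 45.1 CPM after PBS, and its log2 fold change of −0.17 had an interval from −0.73 to 0.39 over 7 libraries, and was −0.36 over 5 and −0.49 over 4. *Ccnd2*, the most abundant gene of the list, was at 419, 301, 523 and 492 CPM after Ang II and 517, 298 and 395 CPM after PBS.

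*Trp53* was at 128, 114, 131 and 143 CPM after Ang II and at 132, 172 and 123 CPM after PBS, with a log2 fold change of −0.14 over 7 libraries (−0.47 to 0.19) and 0.07 over 5. Its target *Cdkn1a*, the p21 inhibitor, was at 0.78, 2.77, 1.49 and 2.67 CPM after Ang II and 0.45, 11.1 and 1.79 CPM after PBS, with most of its RNA in PBS replicate 2. The log2 fold change of *Cdkn1a* was −1.22 over 7 libraries and 0.48 over 5, with intervals of −3.26 to 0.83 and −2.24 to 3.20. The 30 genes of *Trp53* and its targets summed to 988, 1010, 958 and 997 CPM after Ang II and to 959, 1120 and 1010 CPM after PBS, with medians of 0.00, −0.02 and 0.04 and 0, 1 and 1 members lower at an unadjusted p under 0.05 over 7, 5 and 4 libraries.

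The medians of 3 further lists lay between −0.12 and 0.16. For NF-κB and inflammatory genes they were 0.03, −0.12 and −0.05 over 7, 5 and 4 libraries, with sums of 784, 863, 686 and 765 CPM after Ang II and 730, 760 and 835 CPM after PBS. For lineage-choice transcription factors they were 0.16, 0.04 and 0.16, with sums of 5270, 4210, 4650 and 4880 CPM after Ang II and 4860, 3680 and 4550 CPM after PBS. *Lmo2*, the most abundant of them, was at 974, 521, 658 and 724 CPM after Ang II and at 780, 505 and 777 CPM after PBS. Genes of cholesterol synthesis and uptake, which concern the diet of these mice, had medians of 0.02, 0.06 and 0.10 and sums of 1550, 1220, 1200 and 1290 CPM after Ang II and 1310, 1240 and 1280 CPM after PBS. *Srebf2*, their main regulator, was at 318, 229, 238 and 299 CPM after Ang II and at 262, 221 and 271 CPM after PBS. In these 3 lists, 0 members had an unadjusted p under 0.05 over 7 or 5 libraries, and over 4 libraries 1 inflammatory and 1 lineage-choice gene were higher.

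Stress and unfolded protein genes summed to 9540, 12500, 10100 and 10400 CPM after Ang II and to 9410, 15500 and 9980 CPM after PBS, with medians of −0.09, −0.02 and 0.10 and 2 of 24 members lower at an unadjusted p under 0.05 over 5 libraries, and 2 lower and 1 higher over 4. Small and nuclear noncoding RNAs (11 of 13 found) summed to 46800, 42000, 69200 and 41100 CPM after Ang II and 46600, 64500 and 71200 CPM after PBS, with medians of −0.24, −0.07 and 0.40 and 0 such members. *Malat1*, a nuclear RNA, was at 21334, 12665, 16808 and 15484 CPM after Ang II and at 23539.9, 9767 and 18906 CPM after PBS and was lowest in both replicates 2. The marrow stroma list had medians of 0.02, −0.30 and −0.13 (0.00, −0.29 and 0.04 by fitted values) over 7, 5 and 4 libraries, with 1 lower gene at an unadjusted p under 0.05 over 7. Of 15 intestinal genes tested, 7, 8 and 10 had a group without counts in these sets, so that the list's medians of −0.09, −0.33 and 0.04 (0.00, −0.03 and 0.00 by fitted values) are no measure of a change.

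**Figure D4:**
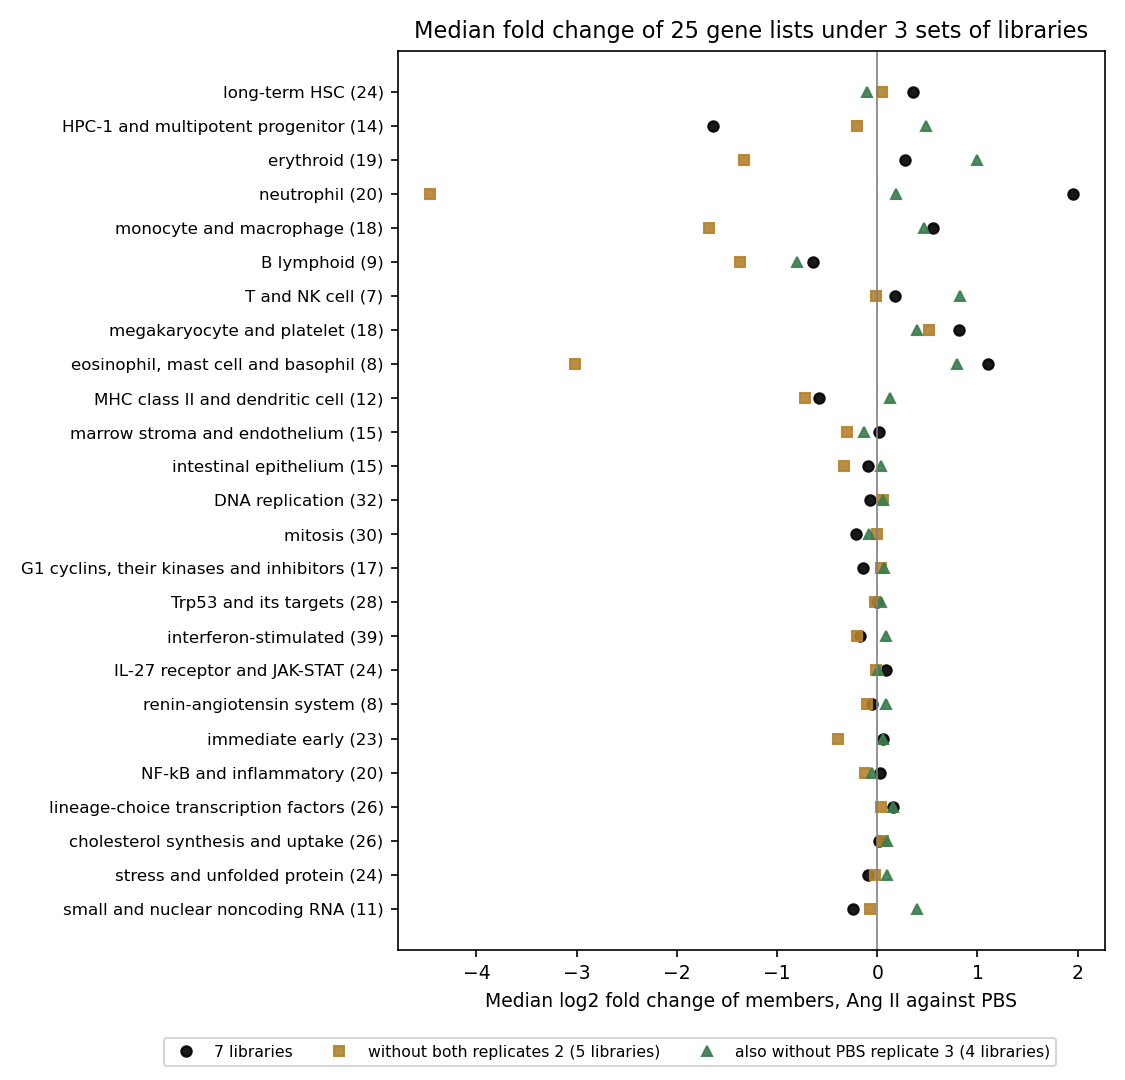
Median log2 fold change, Ang II against PBS, of the members of 25 gene lists in *Apoe*-/-*Il27ra*-/- LT-HSC over 7 libraries (circles), 5 (squares) and 4 (triangles), with the number tested over 7 beside each name and members without a count in a group at their bound. Such members are left out of the medians where the other group lies at or under the bound as well. Lists of mature blood cells move most, the neutrophil list from 1.95 to −4.46 and 0.19. The megakaryocyte list stays positive, as do those of lineage-choice factors and cholesterol genes.

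Whether the Ang II change differs from that with 1 intact copy of *Il27ra* was tested as an interaction with *Apoe*-/-*Il27ra*+/- LT-HSC. By edgeR, 0 of 16365 genes passed with an adjusted p under 0.05, as did 0 by DESeq2 and limma-voom. At an unadjusted p under 0.05 there were 414 (2.53%), with 293 higher (1.79%) and 121 lower (0.739%). This count was 268 without Ang II replicate 3, 236 without PBS replicate 2 and 138 with a filter at a mean of 10 counts. Without both replicates 2, 0 of 16205 passed, and 212 (1.31%) had such a p, 124 higher (0.765%) and 88 lower (0.543%). The Ang II change within *Apoe*-/-*Il27ra*+/- LT-HSC had 0 genes past adjustment and 806 (4.93%) at an unadjusted p under 0.05, 162 higher (0.99%) and 644 lower (3.94%). The genes that follow were named for their change in the same *Apoe*-/-*Il27ra*-/- LT-HSC libraries, so their differences and unadjusted p are biased by that choice. *Slc9a9* was at 0.16 on the log2 scale in *Apoe*-/-*Il27ra*+/- LT-HSC. Its difference was −1.88 (unadjusted p = 0.0124, adjusted p = 1 by edgeR), and −1.74 without both replicates 2 (0.0154). For *Irf1* the change in *Apoe*-/-*Il27ra*+/- was 0.05 and the difference −0.62 (unadjusted p = 0.0329, adjusted p = 1 by edgeR), but −0.49 without both replicates 2 (unadjusted p = 0.105 by edgeR). *Bnip3* was at −0.41 there, a difference of 1.26 (1.38 without both replicates 2), and *Fzd4* at −0.92, a difference of 2.41 (2.23), each with an adjusted p of 1. *Dlk1* had a positive change in both genotypes, at 1.37 in *Apoe*-/-*Il27ra*+/- LT-HSC.

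The same test against *Apoe*-/-*Il27ra*-/- HPC-1 gave 0 of 18013 genes, with 424 (2.35%) at an unadjusted p under 0.05, 239 higher (1.33%) and 185 lower (1.03%), and 0 by DESeq2 and limma-voom. At an unadjusted p under 0.05 the count was 722 without Ang II replicate 2, 704 without PBS replicate 1 and 190 without PBS replicate 2. Within HPC-1 the Ang II change had 0 genes past adjustment and 534 (2.96%) at an unadjusted p under 0.05, 176 higher (0.977%) and 358 lower (1.99%). Without both replicates 2, 1 of 17945 genes (0.00557%) passed in the model of both cell types, and 369 (2.06%) had an unadjusted p under 0.05, 99 higher (0.552%) and 270 lower (1.5%). The gene that passed, *Rab44*, encodes a Rab GTPase and was at 1.17, 53.5, 0.85 and 1.69 CPM in LT-HSC after Ang II and at 5.44, 369.7 and 13 CPM after PBS. PBS replicate 2 was the highest of these, and Ang II replicate 2 was next. The log2 fold change of *Rab44* in LT-HSC was −3.31 over 7 libraries, −2.86 over 5 and −2.09 over 4, against 0.43 in HPC-1. In LT-HSC it turned with single libraries left out, from −6.63 without Ang II replicate 2 to 0.56 without PBS replicate 2. The difference without both replicates 2 was −3.34 (SE 0.548, adjusted p = 0.0261 by edgeR), and over all libraries it was −3.84 (adjusted p = 1). When PBS replicate 3 was also left out, 0 genes passed, with 1 PBS library left in LT-HSC, and whether the call is lost through that library or through the smaller group was not tested. For *Slc9a9* the difference from HPC-1 was −1.82 (unadjusted p = 0.00258, adjusted p = 1 by edgeR). It was −1.68 without both replicates 2, with a change of 0.10 in HPC-1. *Slc9a9* was named from the same LT-HSC libraries, so its difference and unadjusted p are biased by that choice. *Drc7* and *Dntt* were among the lower genes with the smallest p in this test over all libraries, with differences of −5.05 and −6.27 that became −0.98 and −2.92 without both replicates 2, and *Drc7* was at 31.8 CPM in PBS replicate 2 and under 1 CPM in the other 6 LT-HSC libraries.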

How the data were processed

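The deposited table holds RSEM expected counts in whole numbers per Ensembl gene, made by the authors from stranded low-input total RNA libraries read in pairs and aligned to mm10. All 36 columns were mapped to the labels. Symbols were found for 37570 of 38887 identifiers (99.63% of the counts). Groups were compared by edgeR 4.0.16 under R 4.3.3 (filterByExpr, TMM, robust quasi-likelihood test, Benjamini-Hochberg over all genes), with the 6 LT-HSC groups in 1 model and 12 groups of both cell types in another. DESeq2 1.42.0 and limma-voom with sample weights (limma 3.58.1) were alternatives. Genes named were *Il27ra*, *Agr2*, *Myc*, *Ccnd1*, *Trp53* and *Cdkn1a*, then, in each direction and over 7 and 5 libraries, the 10 genes of smallest p among those with non-overlapping groups, a symbol and a mean of at least 5 CPM. List members past an unadjusted p of 0.05 in both sets, the 3 members of highest mean in each list, and the 3 genes of smallest p in each direction of each interaction were added, not all of which are printed. Members and lists were chosen with earlier results of these data known. Mitochondrially encoded genes, of which 0 of 13 were found in the table, were not analysed here.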

Additional observations from a re-analysis of the deposited data

Results flagged for a closer look

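In 29 of the 120 values tested in the 4 Ang II libraries, 1 library stood further from the other 3 than the 95% limit of Dixon's test for an outlying value allows, and chance does this in about 1 in 20. Replicate 2 was that library in 24 of them. These counts cannot be held against that rate, since the values include list sums together with their own genes, some genes were named through a fit without replicate 2, and the blood cell RNA of replicate 2 was known beforehand. Replicate 2 lay at 0.562 on the scale between HPC-1 and LT-HSC. Its sums of gene lists were high for erythroid (4690 CPM), neutrophil (11600 CPM), monocyte and macrophage (3740 CPM), B lymphoid (204 CPM), T and NK cell (56.2 CPM) and eosinophil, mast cell and basophil genes (630 CPM). Single genes were high in replicate 2 as well. Neutrophil and monocyte genes among them were *S100a9* (2331 CPM), *Ngp* (2258 CPM), *Lyz2* (1768 CPM), *Mpo* (1185 CPM), *Fn1* (612 CPM), *C3* (509.8 CPM), *Camp* (301 CPM) and *Elane* (162 CPM). *Hbb-bs*, a beta globin, was at 759 CPM, *Prg2* at 305 CPM, *Igkc* at 94.5 CPM and *Cd48* at 8.76 CPM. *Mki67* (3055 CPM), *Mxd1* (279 CPM), *Anxa2* (145 CPM), *Rab44* (53.5 CPM) and *Ugt1a7c* (40.1 CPM) complete these.

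Ang II replicate 1 stood apart for the immediate early list (2920 CPM) and for *Jun* (788 CPM), *Egr1* (474 CPM) and *Fos* (305 CPM). For *Agr2*, Ang II replicate 3 was the 1 Ang II library with a count, at 0.21 CPM, which is under the detection limit. What sets these libraries apart was not tested. Without both replicates 2, the Ang II change of *Rab44* differed between LT-HSC and HPC-1 by −3.34 on the log2 scale in the test of the difference itself, a call that is not made over all libraries.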

How the results depend on the processing

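Of 19 alternatives to the count over 7 libraries, 16 gave 0 genes at an adjusted p under 0.05, each replicate left out in turn included. DESeq2 gave 1 (lower), no filter on low counts 104, and the fit without 3 libraries (both replicates 2 and PBS replicate 3), which was chosen after seeing the data, 1. Without both replicates 2, alternatives chosen after seeing the data gave 1 by DESeq2, 1 with a replicate block and 1 without 3 libraries, and 0 by limma-voom and for the compared groups only. The difference from *Apoe*-/-*Il27ra*+/- had 71 genes with no filter and 1 without 3 libraries. The difference from HPC-1 had 100 with no filter and 1 without both replicates 2. The cause was not tested. The labels do not say that replicates of 1 number were handled together. Spearman correlation of levels between Ang II and PBS replicates of the same number was 0.965, 0.927 and 0.971 for replicates 1, 2 and 3. A separate correlation across genes, not of these levels, was 0.292, 0.237 and 0.049 for the same pairs. Between replicates of different numbers it was −0.297 to 0.074. A pairing by number thus cannot be told apart from what these libraries share otherwise.

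Of 50 genes with a printed fold change, 37 never reversed over the alternatives. Genes chosen by non-overlap could hardly reverse where libraries were left out, so the 37 are no measure of stability. Log2 fold changes that reversed were as follows, and the cause was not tested beyond the libraries left out. Without both replicates 2 they were 0.31 (*Myc*), 0.07 (*Trp53*), 0.48 (*Cdkn1a*), −5.62 (*C3*), −6.92 (*Camp*), −1.17 (*Anxa2*) and −0.64 (*Mxd1*). Without 3 libraries they were 0.98 (*Myc*), 0.02 (*Trp53*), 1.82 (*Cdkn1a*), −0.62 (*C3*), −0.24 (*Anxa2*) and −0.39 (*Mxd1*). By limma-voom with sample weights they were 0.04 (*Myc*), 0.05 (*Trp53*), 0.1 (*Cdkn1a*), −4.80 (*C3*), −5.74 (*Camp*), −1.28 (*Anxa2*) and −0.56 (*Mxd1*). A Y-linked covariate gave −1.25 (*C3*), −0.96 (*Camp*) and −0.03 (*Anxa2*), and DESeq2 gave 0.07 (*Elane*). A replicate block, which pairs libraries by number, gave −0.01 (*Nat10*) and 0.39 (*Igkc*). Libraries thinned to the lowest total gave −0.0022 (*Gtf2f2*), −0.09 (*Nat10*) and 0.11 (*Elane*).

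With each replicate left out in turn, log2 fold changes ranged from −0.71 to 0.24 (*Myc*), −0.35 to 0.01 (*Ccnd1*), −0.23 to 0.02 (*Trp53*), −1.70 to 0.68 (*Cdkn1a*), −5.51 to 3.28 (*C3*), −6.35 to 6.94 (*Camp*), −6.00 to 1.44 (*Elane*), −1.72 to 1.06 (*Anxa2*), −6.80 to 1.96 (*Igkc*), −0.41 to 1.14 (*Mxd1*) and −6.63 to 0.56 (*Rab44*). Of 475 list medians, 439 moved by less than the median standard error of the members, and 36 by more, among them those of mature blood cells by limma-voom. This error is that of single genes, within which a median over many members would mostly stay. The 439 are therefore no measure of stability. All 25 list sums and 92 gene levels moved by less than 1 SD when raw totals replaced TMM. The TMM factors lay between 0.9374 and 1.0763 in these libraries, so a larger move was hardly possible and this check shows little. The 95% interval of the log2 fold change had a median reach of 0.541 to either side over genes at 10 CPM or more, and how much of it comes from depth was not tested. Libraries thinned to the lowest total gave 233 genes at an unadjusted p under 0.05, against 150. Batch, gender and age are not in the labels. A Y-linked covariate, with 0 genes called and 153 at an unadjusted p under 0.05, adjusted for 1 of these by expression. In the 7 libraries this covariate also divides them by depth.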
